A study of Mus musculus with 5 samples.

Results

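The probes described here mark the wild-type side of 1 culture, that of common lymphoid progenitors (CLP). On 5 mouse 2-colour arrays, 1 for each setting of the study, they were bright in wild-type (WT) cells of the CLP culture and dim in the WT cells of the other 4 settings. WT signal was taken as the spot intensity in the red (Cy5) channel minus the median of the blank spots of that array. Of 23473 probes, 14548 had a WT signal under 100 on the 4 other arrays, and the 100 of these with the highest WT signal in the CLP culture are the members. The WT values on all 5 arrays therefore chose the members, and those values are given below as a description. What the choice did not use is the other channel, green (Cy3), which held the cells with the mutant receptor, named INS in the labels.

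CLP cells are bone marrow progenitors that give rise to B cells, T cells and natural killer cells. Interleukin-7 is a growth and survival signal for mouse lymphoid progenitors, and its receptor pairs the IL7R chain with the common gamma chain to signal through JAK1, JAK3 and STAT5. Gain-of-function changes of IL7R occur in acute lymphoblastic leukaemia. OP9 is a mouse bone marrow stromal line used to grow lymphoid cells from progenitors. Whether CLP or stromal marker genes were among the members could not be checked, since the sources used here pair none of the probe IDs with a gene: 0 of the 100 members matched the reference table. Members are therefore given by probe ID, and the name of the set states only where its WT signal was high.

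All cells came from Balb/c mice, had received a retroviral vector with either WT or INS IL7R, were sorted for GFP and were pooled. The CLP culture held transduced CLP cells after 5 to 7 days with mSCF, hIL7 and hFlt3L on OP9 stroma. The B cells were IgM+B220+ progeny of transduced CLP cells, taken around day 60 from recipients irradiated with 4 Gy, a sublethal dose that leaves host blood cells. The labels call the INS B cells leukemic and the WT B cells not, so the genotype and the leukemic state cannot be told apart there. The KSL culture, whose title says in vitro while its description opens with in vivo, was made from KSL cells, which hold blood stem cells, of bone marrow or fetal liver, transduced and grown for 4 to 5 days in mSCF, mTPO, hIL6, hFlt3L and IL3. In T-ALL, a T-cell leukemia, both arms also carried an intracellular Notch1 vector, and cells were taken at day 30 to 40 from lethally irradiated recipients. The CMP, a myeloid progenitor fraction, came from myeloid disorder samples around day 40 in lethally irradiated recipients of KSL cells. Each setting had 1 array and no dye swap, WT was always Cy5 and INS always Cy3, and no value below has a replicate check or a p-value. In sorted bulk cells, fewer cells of a type and less RNA per cell cannot be told apart.

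The arrays were of like brightness except that of the CMP. The median signal of all probes above the blank median was 20 to 26 in WT and 37 to 51 in INS on the 4 other arrays, and 7 in WT and 6 in INS on the CMP array. Scanner gains ran from 36 to 38 for Cy5 and from 37 to 42 for Cy3, per the file headers. Spots printed with no probe reached at most 26 above the blank median in WT and 52 in INS on any array. None of the 1102 such spots in the CLP culture came near the dimmest member, their highest WT signal being 15. Detection required a spot to exceed the blank spots' mean by 2 SD, and a ratio was read where either channel passed. This limit is lenient in the WT channel: 35.5% to 52.8% of the no-probe spots passed it in WT, and 14.2% to 20.4% in INS. Ratios are INS over WT after normexp correction (offset 50) and loess, so a ratio of a dim probe is compressed toward 1.

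WT signals of the members in the CLP culture ran from 146 to 4495, with a median of 244. Only 7 members exceeded 1000, another 9 lay from 500 up to 1000, 33 from 250 up to 500, and 51 below 250. The brightest, M200000431, had a WT signal of 4495 in the CLP culture, 3 in the B cells, 1 in the KSL culture, 2 in T-ALL and 1 in the CMP. M300009870 had 3153 in the CLP culture and at most 1 elsewhere, and M200003414 had 1927 in the CLP culture and at most 3 elsewhere. Those members were bright in 1 WT sample and at the level of blank spots in the others.

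The lower end of the set was far less selective. In 39 members the WT signal of the CLP culture was at least 10-fold the highest of the other 4, in 53 at least 5-fold, and in 9 under 2-fold. The array next brightest in WT was the KSL culture for 47 members, the B cells for 31, T-ALL for 17 and the CMP for 5. At the edge of the set, M300001632 and M400011183 had a WT signal of 146 and were the last members, while M200001541 at 145 and M300003917 at 144 were the first probes left out. M300001632 still had 75 in the B cells, 79 in the KSL culture and 68 in T-ALL.

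The member spots were spread over the slide. They lay in 23 of 24 printing blocks, with at most 12 in 1 block (block 7), and no member spot carried a scanner flag on any array. The local background around a member in the WT channel had a median of 49.8% of the spot, against 48.1% for the 6233 probes at least as bright in WT in the CLP culture. It reached 80% of the spot for 12 of the 100 members (against 12.7% of those probes). A brighter neighbouring spot was present for 78 members (78.0%, against 59.8% of those probes), and its part in the signals was not tested. Members and those probes were not matched for brightness, with WT signals up to 4495 and up to 60783, so the gap is not read as a trait of the members. Only 4 members touched another: M200000431 lay beside M200000454 in block 13, and M200004168 beside M200000853 in block 16.

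**Figure D1:**
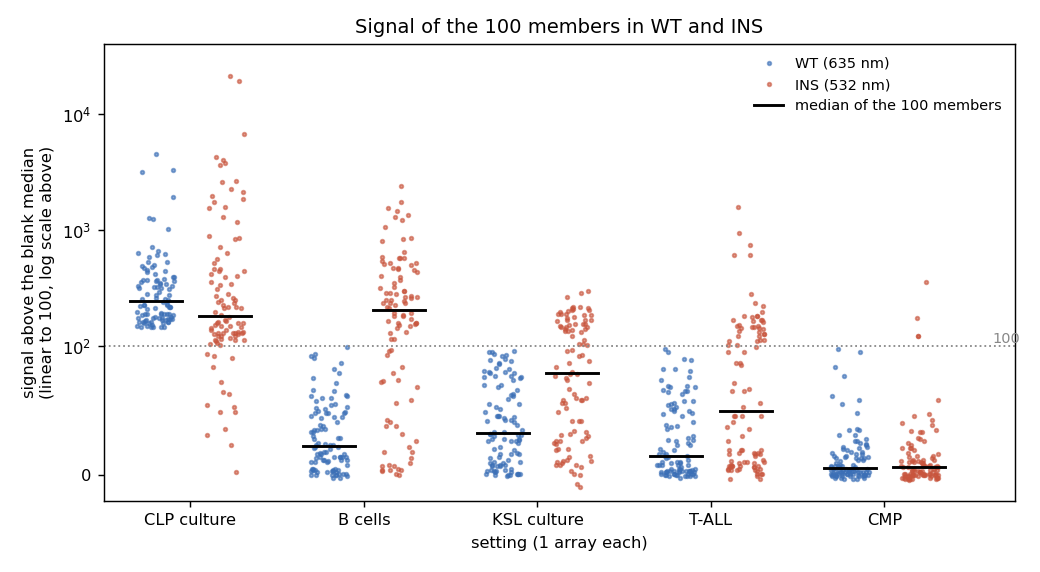
Signal of the 100 members above the blank median of each array, in WT (Cy5, blue) and INS (Cy3, red), for the 5 settings. Each point is 1 member, black bars are medians, and the axis is linear up to 100 (dotted line, the limit of the choice) and logarithmic above. WT points outside the CLP culture lie below 100 by choice, while INS points in the B cells have a median of 204.

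In the INS cells of the CLP culture most members were still present, but they spread widely around their WT signal. Of 100 members, 99 were detected in INS (80.2% of all probes and 68.3% of the probes dim elsewhere in WT were), and 85 had an INS signal of at least 100 (36.2% and 4.49% did). INS signals ran from 2 to 21074 with a median of 181. The median log2 ratio was -0.59, with 18 members at least 2-fold higher in INS, 26 at least 2-fold lower and 56 in between. Over all probes the median was 0.00, with 5.04% higher and 0.854% lower, and among probes dim elsewhere in WT 1.54% were higher and 0.311% lower. Since the WT channel of this same array chose the members, the lean to lower ratios is built into the choice, and nothing is read from it. The count of lower members was 15 when normexp used the local background, 37 with the local background subtracted, 38 with the blank median subtracted and 39 in the authors' deposited table.

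The members higher in INS held the brightest spots of the set. M200003414 had an INS signal of 21074 in the CLP culture, 0 in the B cells, 26 in the KSL culture, 6 in T-ALL and 4 in the CMP. Its fold in the CLP culture was 10.3 in favour of INS, and on the 4 other arrays neither genotype passed 26. M300009870 had an INS signal of 19107 in the CLP culture against 26 or less elsewhere, a 5.87-fold higher value in INS. Its local background in the CLP culture was 92.6% of the spot in the WT channel, and its part in the fold was not tested.

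Further members followed this pattern at lower signals. M200000046 had 664 in WT and 6762 in INS (8.34-fold higher), with 87 in WT and 267 in INS in the KSL culture and at most 18 on the other arrays. M200001630 had 277 in WT and 3787 in INS, 9.79-fold higher. M200000785 had 625 and 4232, 5.44-fold higher. These probes were high in cultured CLP cells of both genotypes and higher in INS. Of the 18 members higher in INS, INS signals in the CLP culture ran from 717 to 21074, whereas their INS median was 20.0 in the B cells, 70.5 in the KSL culture, 13.0 in T-ALL and 3.0 in the CMP.

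Choosing by INS instead of WT gave largely other probes. When the INS signal, held under 100 on the 4 other arrays, ranked the probes in place of the WT signal, the 100 brightest in the CLP culture shared 14 probes with the members (14.0% of each list). Only 20 members had an INS signal under 100 on all 4 other arrays, so none of the others could enter that list. The small overlap is thus largely set by the limit. The 14 shared probes included M300009870, M200003414, M200000785, M200001630 and M300000002. M300000002 was nearly equal in both genotypes in the CLP culture, with 1269 in WT and 1168 in INS.

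The members lower in INS were led by the brightest WT probe. M200000431 had 4495 in WT and 341 in INS in the CLP culture, 13.5-fold lower in INS. M400011522 had 343 in WT and 2 in INS, where it was not detected, so that it was at least 7.24-fold lower in the main setting. Its local background was 80.2% of the spot in WT, and across the other settings it was 2.21-fold (normexp with local background) to 228-fold lower. M400001029 had 416 and 53 (5.08-fold lower) and M400005743 had 391 and 64 (4.38-fold lower). M200005655, with 394 and 102, was 3.38-fold lower, and 3.34-fold higher in INS in the B cells (317 against 23). Of the brighter members, M200008247 had 1245 in WT and 440 in INS (3.14-fold lower, and 1.97-fold when normexp used the local background) and M200005769 had 1014 and 631 (1.86-fold lower), and neither passed 103 on any other array. M300010318, with 630 and 112, was 4.88-fold lower in the main setting, but its local background in the WT channel was 114% of the spot, and its log2 ratio was 0.99 when normexp used the local background. The direction of that probe depends on the background step.

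In CLP-derived B cells the members were mainly higher in INS. Among 96 measured members, INS exceeded WT at least 2-fold in 50 and fell below it 2-fold in 0, with a median log2 ratio of 1.09 and a range from -0.30 to 3.92. Over all probes 4.88% were higher and 3.97% lower, with a median of 0.00. Because the choice kept WT signals under 100 there, low ratios were hard to reach, and the 10985 measured probes with the same limit are the closer background: 1.82% of them were higher and 0.246% lower, with a median of 0.00. Of the 96 members, 10 were measured through INS alone. Among the 83 detected in both channels 43 were higher (51.8%, against 1.86% of probes dim elsewhere in WT and detected in both).

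The B cell ratios came from INS signals mostly of 100 or more beside WT signals held under 100 by the choice. Over all 100 members the INS signal ran from 0 to 2386 with a median of 204, and the WT signal from -2 to 99 with a median of 22.5. An INS signal of at least 500 was seen for 20 of the 100 members in the B cells, a share similar to that of all probes (4215 of 23473). Of the 14548 probes dim elsewhere in WT, 39 (0.268%) reached it, these 20 included. In T-ALL 5 members reached 500, as did 4502 of all probes and 21 of those dim elsewhere in WT. In the KSL culture 0 members did (5248 and 5), and in the CMP 0 (1686 and 0). An INS signal of at least 100 was seen for 68 members in the B cells (37.5% of all probes and 5.83% of probes dim elsewhere in WT). It was seen for 42 in the KSL culture (41.5% and 9.27%), 38 in T-ALL (38.8% and 7.62%) and 4 in the CMP (15.9% and 0.419%). That lower mark is not particular to the members, since 77, 74, 63 and 1 of the 100 probes ranked just after them reached it. The median member stood at percentile 49.8 of all probes in WT and at percentile 71.4 in INS. In the CLP culture it stood at 79.7 in WT and 71.8 in INS.

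M300004820 had the highest INS signal of the set in the B cells. Its INS signal was 1298 in the CLP culture, 2386 in the B cells, 25 in the KSL culture, 6 in T-ALL and 7 in the CMP, and its WT signal was 3260, 51, 10, 8 and 2 in the same order. It was thus high in both CLP cultures and in INS B cells only, 12.4-fold higher in INS B cells and 2.80-fold lower in the INS CLP culture. M200002361 had 1735 in INS and 61 in WT in the B cells, 8.43-fold higher, and 881 in INS and 604 in WT in the CLP culture. M200001970 had 1448 in INS and 44 in WT in the B cells, 8.57-fold higher. It also had 706 in WT and 463 in INS in the CLP culture, and at most 93 elsewhere.

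Where WT was not detected, the B cell fold is a lower bound within the main setting, which applied to 7 of the 50. M200002189 had an INS signal of 541 and a WT signal of 0 and was at least 7.51-fold higher. M400005743 had 346 and 0 and was at least 5.34-fold higher. M400011522 had 233 and -1 and was at least 4.10-fold higher. When normexp used the local background, these 3 were 4.58-, 3.24- and 2.05-fold higher. Of these, M400005743 and M400011522 were among the 6 lowest ratios of the CLP culture, while M200002189 was 6.86-fold higher in INS there too. The highest B cell ratio of the set, looked up after the values were seen, was that of M200002076, with 1355 in INS and 2 in WT, at least 15.1-fold higher.

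**Figure D2:**
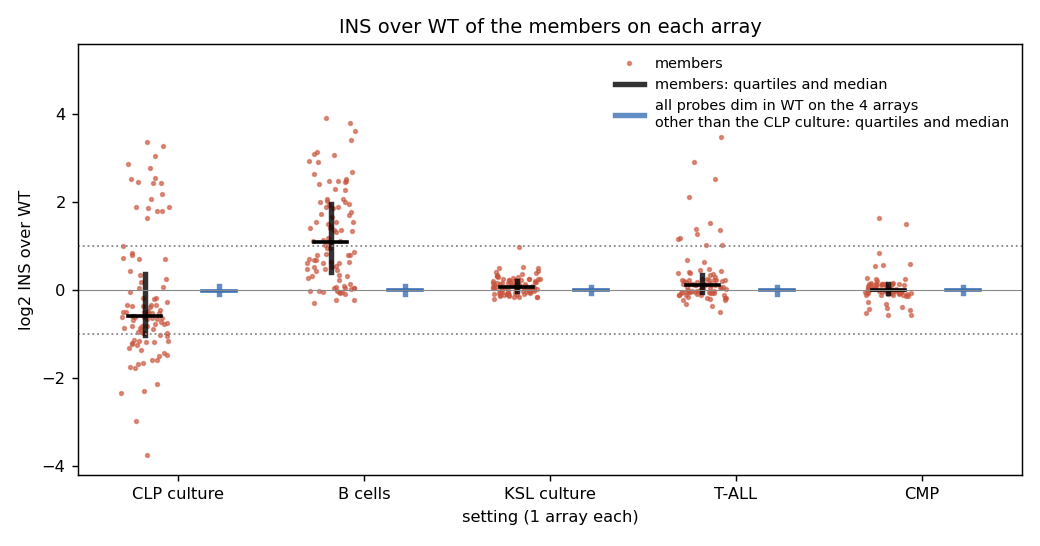
Log2 INS over WT of the measured members on each array (red points, with quartiles and median in black), beside the quartiles and median of all measured probes with a WT signal under 100 on the 4 arrays other than the CLP culture (blue). Dotted lines mark 2-fold. The member median is 1.09 in the B cells and between 0.01 and 0.11 in the KSL culture, T-ALL and the CMP.

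The share of probes higher in INS B cells went up with the WT signal in the CLP culture. Among probes dim elsewhere in WT, 0.434% of those with a CLP culture WT signal under 10 were at least 2-fold higher in INS B cells, 1.22% of those from 10 up to 50, 3.99% from 50 up to 100 and 13.0% from 100 up to 146. The members, from 146 on, had 52.1%. The median log2 ratio in the B cells was -0.02, -0.01, 0.04 and 0.35 in the 4 lower ranges. In the 100 probes ranked just after the members, 17 of 99 measured were higher in INS B cells (17.2%) and 0 lower. The same ranges of CLP culture signal in T-ALL had 1.01%, 0.925%, 0.761% and 2.05% higher, and the members 14.0%. In the CMP the shares were 0.173%, 0.399%, 0.741% and 0.775%, and 2.63% in the members. On the CLP culture array itself they were 0.436%, 1.46%, 4.06% and 7.10%, and 18.0% in the members. A rise was thus not particular to the B cells. Median INS B cell signals of the 4 lower ranges rose too (4.0, 29.0, 91.0 and 140.0), and ratios of dim probes are compressed. The part of this in the rising share was not tested.

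Lists chosen by the same rule on the other WT samples are given beside this for scale, and the differences between lists were not tested. In the B cells, INS exceeded WT at least 2-fold in 9 of 93 measured probes selective for the WT KSL culture, 8 of 86 selective for WT T-ALL, and 4 of 94 selective for the WT CMP. Their median log2 ratios in the B cells were -0.01, -0.01 and 0.03. All these probes were held under 100 in WT B cells as the members were. A high share in 1 other setting was not particular to the members: of the probes selective for the WT KSL culture, 61 of 99 measured (61.6%) were higher in INS in the CLP culture, with a median log2 ratio of 1.29, against 52.1% for the members in the B cells.

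**Figure D3:**
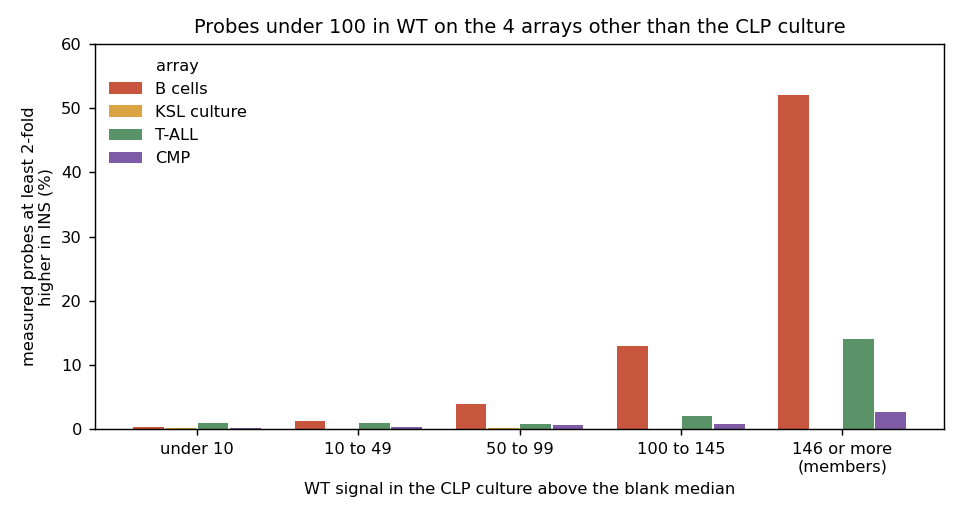
Share of measured probes at least 2-fold higher in INS on each of 4 arrays, for probes with a WT signal under 100 on those arrays, by their WT signal in the CLP culture. The B cell bars go from 0.434% in the lowest range to 52.1% in the members, and the T-ALL bar is 14.0% in the members.

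Within the set, members lower in the INS CLP culture were mostly higher in INS B cells. In the main setting, of the 26 members at least 2-fold lower in INS in the CLP culture, 17 were at least 2-fold higher in INS in the B cells. Of all 96 measured members 50 were. Of the 56 in between, 29 were higher, and of the 18 members higher in INS in the CLP culture, 4 were. Median log2 ratios in the B cells were 1.55, 1.11 and 0.10 in the same order. Lower in the CLP culture with higher in the B cells was seen in 0.388% of all probes measured on both arrays and in 0.186% of those dim elsewhere in WT.

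As a description across the 96 members measured on both arrays, Pearson's r between these log2 ratios was -0.29 and Spearman's rho -0.28. Over all 19052 probes measured on both arrays r was -0.28, and over the 10202 of them dim elsewhere in WT it was -0.20. A negative r was thus not particular to the members. The points share the 2 arrays and their dye assignment, and the WT signal that chose the members is part of the CLP culture ratio.

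Another 4 members were higher in INS on both arrays (0.262% of all probes and 0.0882% of those dim elsewhere in WT). M200002189, already named for the B cells, went from 453 in WT to 4026 in INS among cultured CLP cells. M300002981 had WT signals of 310 (CLP culture) and 18 (B cells) and INS signals of 1566 and 570, folds of 3.71 and 5.62. M300003195 had 348 and 2 in WT and 2124 and 149 in INS; in the B cells, where WT was not detected, it was at least 2.86-fold higher in the main setting but 1.79-fold when normexp used the local background. The fourth, M300001451, had 371 and 48 in WT and 1732 and 405 in INS, with a local background of 88.6% of the spot in the CLP culture. All 4 had higher INS than WT signals in both settings of the CLP lineage.

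**Figure D4:**
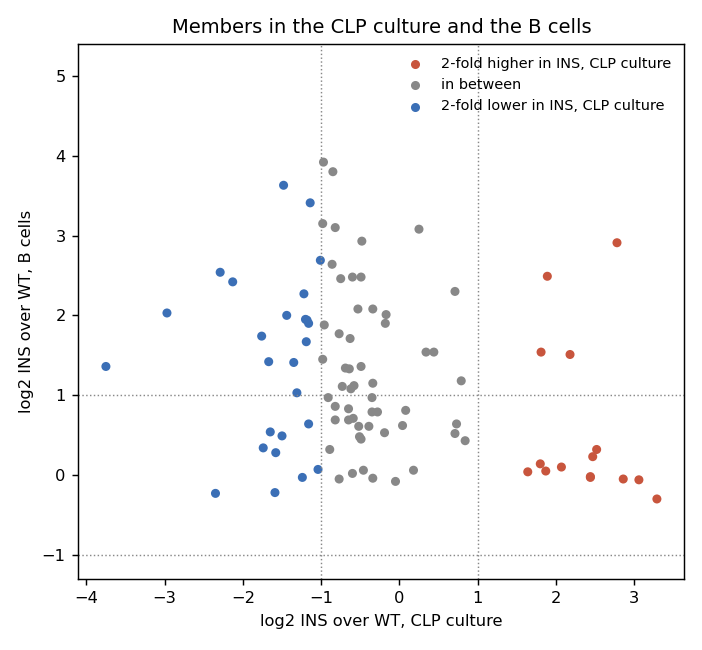
Log2 INS over WT in the CLP culture (horizontal) against that in the B cells (vertical) for the 96 members measured on both arrays, with 2-fold lines dotted. Blue points are at least 2-fold lower in INS in the CLP culture, red points at least 2-fold higher and grey points in between; 17 blue, 29 grey and 4 red points lie above the upper 2-fold line of the B cells.

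In T-ALL most members were less than 2-fold apart between the genotypes. In the main setting a minority, above the background share, were higher in INS. INS exceeded WT at least 2-fold in 12 of 86 measured members and was lower in 0, with a median log2 ratio of 0.11; 1.82% of all probes were higher and 0.599% lower, and of probes dim elsewhere in WT 1.06% and 0.0379%. All 12 were detected in both channels. The count was 5 when normexp used the local background and 22 when the blank median was subtracted. INS signals of the members ran from -3 to 1576 with a median of 49.5.

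Of these 12 members, 9 were also higher in INS B cells (both held for 0.395% of all probes and 0.185% of those dim elsewhere in WT). M400013195 had 1576 in INS and 30 in WT in T-ALL (11.2-fold higher), and 1296 and 20 in the B cells (10.6-fold higher). In the CLP culture the same probe had 261 in INS and 527 in WT, 2.21-fold lower, with a local background of 79.7% of the spot in WT. It was 1.27-fold lower there when normexp used the local background, which ends the 2-fold call. M200002361 had 950 in INS and 48 in WT in T-ALL, 5.76-fold higher, and M300005685 had 234 and 18, 2.64-fold higher (1.66-fold when normexp used the local background). M300005685 was not among those higher in the B cells, where its INS signal was 4 and its WT signal 4.

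In the KSL culture none of the 95 measured members was 2-fold apart in either direction, with log2 ratios from -0.19 to 0.99 and a median of 0.08. On that array 0.161% of all probes were higher and 0.0208% lower (0.0770% and 0 of those dim elsewhere in WT), so a count of 0 is near the background. With the blank median or the local background subtracted, 9 and 8 members were higher. M300002981 and M300003195 had the highest INS signals there, 298 and 288, against 90 and 92 in WT. Both were also higher in INS in the CLP culture and the B cells, as given above.

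In the CMP, INS exceeded WT at least 2-fold in 2 of 76 measured members and was lower in 0, with a median log2 ratio of 0.01 (3.03% of all probes were higher and 3.12% lower; 0.391% and 0.0460% of probes dim elsewhere in WT). M200000467 had 354 in INS and 95 in WT, 3.12-fold higher, and it was 5.75-fold higher in the INS CLP culture with 2648 against 341. M400010990 had 175 and 36, 2.84-fold higher, and 2.92-fold higher in the B cells with 194 against 10. INS signals of the members in the CMP had a median of 6.0, near the blanks on this dimmer array, and with the blank median subtracted 14 members were higher and 11 lower.

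Counted over the 4 arrays other than the CLP culture, 46 members were 2-fold higher in INS on none, 44 on 1, 10 on a pair of arrays and 0 on more. Thus 54 of the 100 members, chosen as dim in WT outside the CLP culture, were higher in INS in at least 1 other setting, in 50 cases in the B cells. Among probes dim elsewhere in WT, 332 of 14548 were (2.28%). That share counts probes whether measured on these arrays or not, and most members were measured, so it is a low background. Shares over all probes are not given here for the counts of 54 and 10. In the authors' deposited table, whose background step is unknown, 60 of the 87 members with a value in the B cells reached 2-fold in favour of INS and 2 in favour of WT. The share over all probes in that table is not given here, and the choice held WT in the B cells under 100. These counts are therefore a description only.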

How the data were processed

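Each of the 5 arrays compared WT (Cy5) with INS (Cy3) RNA, amplified to amino allyl aRNA per the labels' protocols. The deposited scanner files hold spot intensity on a linear scale, with no normalization or background subtraction named, per the file headers. Log2 ratios of the same arrays come from a table deposited by the authors, used as an alternative. Its Pearson r with the ratios computed here was 0.748 to 0.891, so both run in 1 direction, and its SD was 0.718 to 0.963 of that of log2 ratios after subtraction of the blank median. The median of its column was -3.8e-05 for cultured CLP cells, -4.8e-05 for B cells, 0 for KSL cells, -1.8e-05 for T-ALL and 4.3e-06 for the CMP. Its log base is inferred from that spread, and its background step and filter stay unknown.

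Foreground medians were corrected in limma 3.58.1 (R 4.3.3) by normexp without local background, offset 50, then loess over each array (span 0.3, control spots at weight 0). Blank spots (2736 per array) were trimmed by 5% at each end for the detection limit. The 1 probe with 2 spots was averaged. The steps were tested on simulated data. Known changes of the ratio were planted there only in probes with a WT signal above 500, so ratios of dimmer probes were not covered. Where 1 channel was not detected, the fold is a lower bound against the higher of the dimmest detected signal and the probe's own.

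Members, lists and comparisons were chosen with earlier results of these data known. Named were the 12 members brightest in WT in the CLP culture, the 6 highest and 6 lowest ratios there, the 2 highest INS signals on each other array, and 2 probes on either side of the size limit. M300001451, M200002076, M200000454, M200004168 and M200000853 were named after their values were seen. Marker and pathway gene lists could not be evaluated without gene names. With 1 array per setting no test was possible, and the number of arrays limits the precision. Alternatives were other backgrounds, normalizations and selections (15 planned, 3 chosen after seeing the data).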

Additional observations from a re-analysis of the deposited data

Results flagged for a closer look

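A difference between settings stood out. In the main setting 17 members were at least 2-fold lower in INS in the CLP culture and at least 2-fold higher in INS in the CLP-derived B cells. Of all probes 0.388% did so, and of probes dim elsewhere in WT 0.186%. When normexp used the local background, 15 members in all were lower in the CLP culture, and no count of the pattern under it is given here. Under it M300010318 (log2 ratio 0.99) and M400013195 (1.27-fold lower) lost the CLP culture call, and M200000431 (1.93-fold higher) lost the B cell call. With 1 array for each setting this difference was not tested. Being higher in INS B cells was common in the set (50 of 96 measured members). The choice of members favours both sides of the pattern, since it takes high WT signals in the CLP culture and holds WT signals in the B cells under 100; the reverse was therefore hard to reach, and its count of 0 is not read.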

How the results depend on the processing

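Under the normalizations tried, the members at least 2-fold higher in INS B cells numbered from 41 of 96 measured (normexp with local background) to 65 of 91 (blank median subtracted). The main setting had 50 of 96. Their direction is largely set by the choice, which held WT under 100 there, so nothing is read from its being kept. Shares over all probes under these alternatives are not given here. The B cell median log2 ratio was 1.87 with the blank median subtracted, 1.83 in the authors' deposited table and 1.77 for the 50 brightest members, of which 30 were higher. Of these 50, 16 were lower in the CLP culture, as the smaller set sets. With a WT limit of 50 or 200 in place of 100, 46 members stayed in the set each time. Selection by the INS channel, chosen after seeing the data, holds INS under 100 in the B cells by construction. It gave a B cell median of -0.05 with 0 higher and 6 lower, and in the CLP culture a median of 1.09 with 59 higher and 1 lower. It left 0 higher in T-ALL. The CMP had 0 higher and 1 lower under it.

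Counts moved with the background step and, where named, with the selection; the cause was not tested. Members lower in the CLP culture were 15 under normexp with local background, 37 with it subtracted, 38 with the blank median subtracted and 39 in the authors' table. Lower in B cells were 2 with local background subtracted, 2 with the blank median, 2 in the authors' table and 1 under a limit of 200. In the KSL culture 8 were higher and 6 lower with local background subtracted, 9 and 1 with the blank median, 4 higher in the authors' table, 2 with offset 10, 1 with loess within blocks and 1 with pixel means. In T-ALL 22 were higher and 4 lower with the blank median, 6 lower with local background subtracted, 2 lower in the authors' table and 1 under a limit of 200, while 5 were higher under normexp with local background and 5 when selection subtracted it. In the CMP 14 were higher and 12 lower with local background subtracted, 14 and 11 with the blank median, 9 and 8 in the authors' table, 5 and 2 with offset 10, and 1 and 2 under a limit of 200. CMP counts of higher members were 0 under a limit of 50, and 1 each among the 50 highest, when selection subtracted local background, and without members above 50% of their CLP culture signal elsewhere. Detected in INS in the CLP culture were 49 of the 50 highest and 199 of the 200 highest, as the set size sets.

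Of 40 named ratios from 22 probes, 1 changed direction, that of M300010318 in the CLP culture (0.99 under normexp with local background), 32 moved over 1.5-fold under at least 1 alternative, and 31 stayed at least 2-fold throughout. No paired analysis was possible because each setting has 1 array. Offset, background and the dim signals near the blanks limit the size of every fold.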
